A study of Mus musculus with 2 samples.

Results

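The genes described are 5 WNT ligands (Wnt4, Wnt5a, Wnt7b, Wnt9b and Wnt11) and 5 direct targets of WNT signalling (Axin2, Lef1, Tcf7, Sp5 and Nkd1). They were taken as every non-control spot that bears one of these names, which gave 13 probes of 39429, 5 for the ligands and 8 for the targets. The tissue was the ureter of NMRI mouse embryos at E18.5, and the comparison asks what differs when Rbpj, the DNA-binding partner of Notch receptors, is targeted in the ureteric mesenchyme. Rbpj-cKO embryos were Tbx18(cre/+);Rbpj(fl/fl). The cre is expressed from 1 Tbx18 allele, a gene of the undifferentiated ureteric mesenchyme, so the urothelium is not its target. Controls were Rbpj(fl/?), with the second allele unspecified and no cre listed. There were 2 arrays of both RNAs: a male pair with Rbpj-cKO in red (AlexaFluor647) and a female pair with Rbpj-cKO in green (AlexaFluor555).

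WNT ligands are lipid-modified secreted proteins. Those that act through beta-catenin bind Frizzled and LRP receptors, halt the breakdown of beta-catenin and let it activate genes with LEF and TCF proteins, while others signal without it. In the ureter, Wnt7b and Wnt9b are known as signals from the urothelium to the surrounding mesenchyme, where beta-catenin signalling is needed for smooth muscle precursors, and Axin2 is a common readout of it.

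All values are log2 ratios of Rbpj-cKO over control or log2 normalised signals, as stated, and a mean is over the 2 arrays. Of the 13 member probes, 12 were well above background in all 4 channels. The exception was the dimmer of the 2 Axin2 probes, which was above background in none. In each channel 66.8% to 71.1% of all probe spots were well above background. The ratios of the 2 arrays correlated at -0.18 across all 20989 features, a description across genes that share the arrays and dyes. Sex, dye and array change together and cannot be told apart. The ratios of Rbpj were -1.58 (male) and -0.93 (female), with a mean of -1.25 and a limma adjusted p = 0.0761. These values are from the brightest Rbpj probe of 2 on the array, and the other is not shown. The sources do not say if the probe lies in the deleted part. The ureter markers Upk1b, Upk2, Upk3a, Acta2, Myh11 and Tbx18 were all well above background.

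At each gene's brightest probe, the targets had higher signals in Rbpj-cKO than in control ureters on both arrays, and the ligands were mixed. The mean folds of the targets ran from 1.14 for Nkd1 to 1.47 for Sp5, which was 2.10-fold higher on the male array and 1.03-fold on the female array. All 5 targets were higher on both arrays at their brightest probe, as were 2 of the 5 ligands (Wnt4 and Wnt7b), where 21.7% of all features were. None was lower on both arrays (19.7% of all features), and the other 3 ligands had opposite signs (58.6% of all features). The median of the mean log2 ratios was 0.44 for the targets and 0.30 for the ligands, against 0.01 over all features. On single arrays the target median was lower, at 0.32 (male) and 0.36 (female). The ligand median was 0.33 (male), above that of the targets, and 0.14 (female). No member passed the limma test (adjusted p = 1.00 for each), while 26 of 20989 features passed, or 0.124%. In the fit of single probes none of the 12 passed either, while 0.16% of all probes did. At an unadjusted limma p under 0.05, 3 targets (Axin2, Sp5 and Tcf7) and no ligand were higher, beside 1.47% of all features. No member changed at least 1.5-fold the same way on both arrays, as 0.638% of features did. The difference between targets and ligands was not tested. The members were chosen with earlier results of these data known, so the shares of all features beside them serve as description only.

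**Figure D1:**
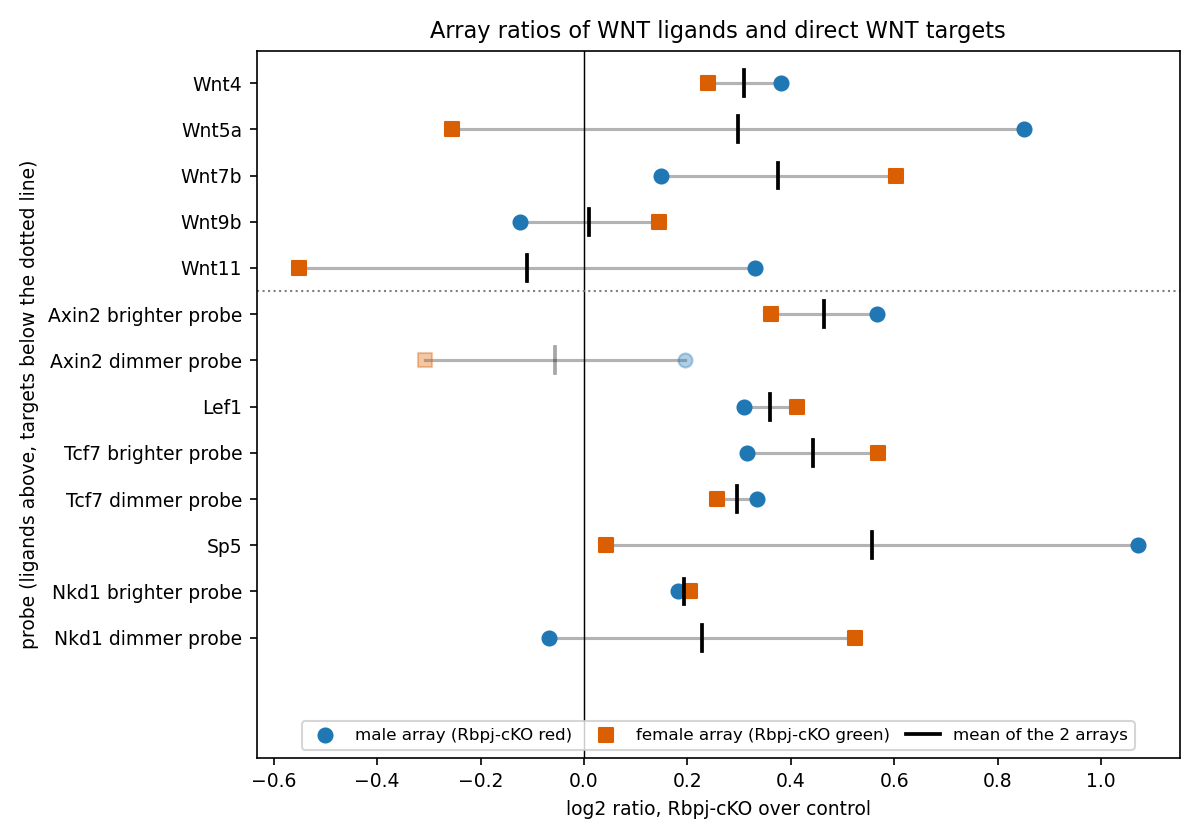
Log2 ratio of Rbpj-cKO over control (x axis) for each of the 13 member probes (y axis), on the male array (circles) and the female array (squares), with the mean as a bar; the Axin2 dimmer probe is faded because it was not well above background in any channel. Of the 7 target probes above background, 6 lie right of 0 on both arrays, and Wnt5a, Wnt9b and Wnt11 straddle 0.

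Among the ligands, Wnt7b, which epithelium of the ureter and collecting duct makes, had the highest mean ratio. Its log2 signal was 10.22 in Rbpj-cKO and 10.07 in control on the male array, and 10.48 and 9.87 on the female array. Both Rbpj-cKO signals thus lay above both control signals. The ratios were 0.15 and 0.60 (mean 0.38, SD 0.32, n = 2), a 1.30-fold higher level with a 95% interval of 0.956 to 1.76. The interval includes no change, and the limma adjusted p was 1.00. Its probe maps to bases 85366896 to 85366955 of chromosome 15 in the mm9 build, minus strand.

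Wnt4 is the ligand that turns kidney mesenchyme into nephron epithelium and acts in the forming female genital ducts. Its log2 signal was 11.77 in Rbpj-cKO and 11.38 in control on the male array, and 11.20 and 10.96 on the female array. Rbpj-cKO was the higher channel on each array, while the groups overlapped, since the male control was above the female Rbpj-cKO signal. The ratios were 0.38 and 0.24 (mean 0.31, SD 0.10), or 1.24-fold with an interval of 0.923 to 1.66. The 60 bases of the probe span 569 bases of chromosome 4 (136851690 to 136852258, mm9), so it reads across an exon junction.

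Wnt5a, a ligand of mesenchyme that mostly signals without beta-catenin through Ror receptors, had opposite ratios on the arrays. Its log2 signal was 10.39 in Rbpj-cKO and 9.54 in control on the male array, and 9.37 and 9.63 on the female array. The male Rbpj-cKO signal was the highest of the 4 and the female Rbpj-cKO signal the lowest. The ratios were 0.85 and -0.25 (mean 0.30, SD 0.78), and the 95% interval of the fold ran from 0.859 to 1.76. The mean thus rests on the male array. The probe maps to bases 29336664 to 29336723 of chromosome 14 (mm9).

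Wnt11, a ligand of ureteric bud tips in the kidney that promotes branching, also had opposite ratios. The log2 signals of its probe were 11.41 in Rbpj-cKO and 11.08 in control on the male array, and 10.60 and 11.15 on the female array. The ratios were 0.33 and -0.55 (mean -0.11, SD 0.62), and the fold was 0.926 with an interval of 0.662 to 1.30. Here too the female Rbpj-cKO signal was the lowest of the 4 and the male one the highest. The probe maps to bases 106001985 to 106002045 of chromosome 7 (mm9).

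Wnt9b, made by the stalk of the ureteric bud and known to act on nephron progenitors and ureteric mesenchyme, was the dimmest ligand probe relative to its background. Its scanned signal was only 1.71 to 3.82 times the local background across the channels. The log2 signals were 7.44 in Rbpj-cKO and 7.56 in control on the male array, and 7.42 and 7.28 on the female array. All 4 lay close together, with ratios of -0.12 and 0.14 (mean 0.01, SD 0.19). The interval of the fold was 0.748 to 1.36. The probe maps to bases 103588882 to 103588941 of chromosome 11 (mm9, minus strand).

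**Figure D2:**
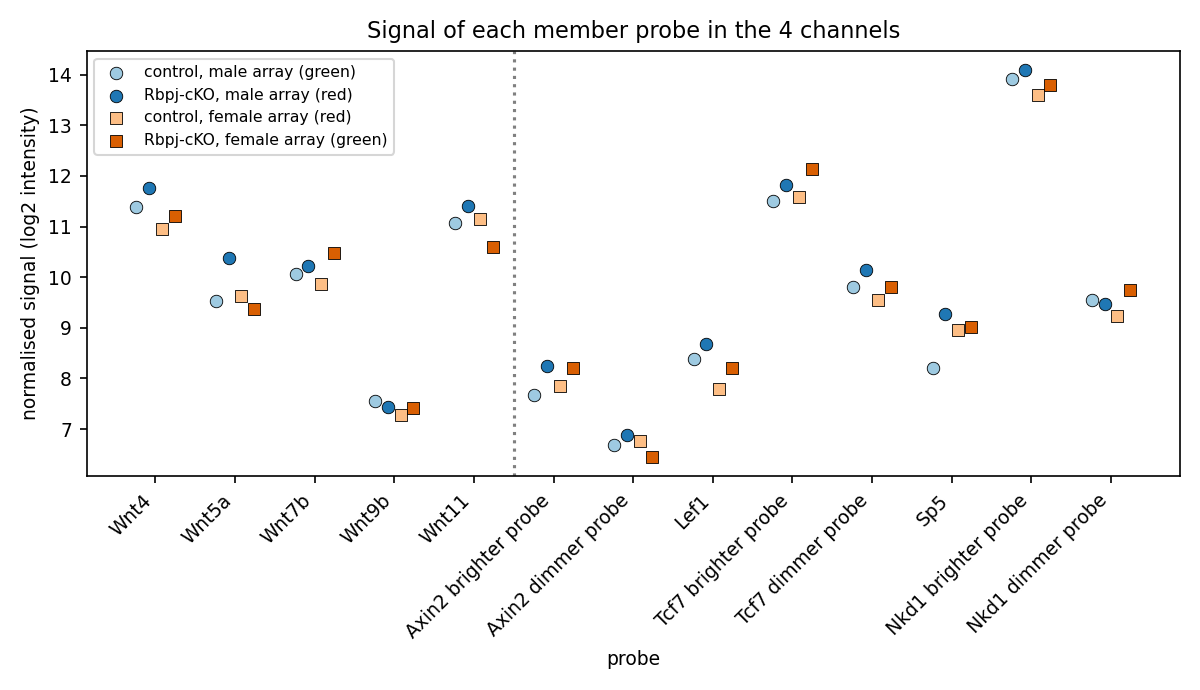
Normalised signal (y axis, log2 intensity) of each member probe (x axis) in the 4 channels: control and Rbpj-cKO on the male array (circles) and on the female array (squares), with ligands left of the dotted line. Levels are comparable only within a probe; both Rbpj-cKO points lie above both control points for Wnt7b, the Axin2 brighter probe, both Tcf7 probes and Sp5.

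Over all member probes above background, 5 of 12 had both Rbpj-cKO signals above both control signals (1 of 5 ligand probes and 4 of 7 target probes), beside 14.1% of all probes above background. For the Tcf7 dimmer probe the gap was under 0.01 on the log2 scale. Against 20.7% of all probes, 8 of the 12 were higher on both arrays.

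The targets comprise a scaffold and a Dishevelled-binding protein that dampen the pathway (Axin2 and Nkd1), the DNA-binding partners of beta-catenin that the pathway also induces (Lef1 and Tcf7) and a zinc finger repressor (Sp5). For 3 of these genes the array holds 2 probes that read different parts of the transcript. The first 30 of the 60 bases of each are shown, 5′ to 3′ in the sense of the transcript as the scanner files list them, because the probes of 1 gene did not all give the same ratio.
Axin2 brighter: cttggtacaataattattgtaattaagaga
Axin2 dimmer: tcctgggggaacagattattattgctactc
Tcf7 brighter: ttttttcattctcgctgtagatagcctgaa
Tcf7 dimmer: ccaatacttcttggaccaagaatacctggt
Nkd1 brighter: cactaatatttagccagccttcatgtagaa
Nkd1 dimmer: taagagatcaaggtagcgcataaaggctta
The Axin2 brighter probe is the most A- and T-rich of the 13, with 20.0% G or C, and the dimmer one has 48.3%.

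Axin2 is the scaffold of the complex that breaks down beta-catenin and limits the signal that induces it. At the brighter probe its log2 signal was 8.24 in Rbpj-cKO and 7.68 in control on the male array, and 8.20 and 7.84 on the female array. The Rbpj-cKO signals were nearly equal and both lay above the controls. The ratios were 0.57 and 0.36 (mean 0.46, SD 0.14, n = 2), or 1.38-fold with a 95% interval of 1.03 to 1.86 (limma adjusted p = 1.00). This interval takes no account of the number of probes tested. Like the other intervals here, it uses a variance pooled over all probes.

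The Axin2 signal was dim, at 2.75 to 5.85 times the local background. Normexp with an offset draws ratios of dim probes towards 0, and the size of the ratio differed between settings. With the scanner's processed signals the Axin2 ratios were 1.24 and 0.40 (mean 0.82), and with no offset the mean was 0.58. Which step of the processing makes these values differ was not tested. The dimmer Axin2 probe had 0.896 to 1.30 times the local background, so it gives no ratio. The brighter probe lies on chromosome 11 at 108812034 to 108812093 and the dimmer one at 108803927 to 108803986 (mm9).

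Tcf7, also called TCF1, had 2 measurable probes, and both were higher in Rbpj-cKO on both arrays. At the brighter probe the log2 signal was 11.83 in Rbpj-cKO and 11.51 in control on the male array, and 12.15 and 11.58 on the female array. The ratios were 0.32 and 0.57 (mean 0.44, SD 0.18), or 1.36-fold with an interval of 1.01 to 1.83. At the dimmer probe the ratios were 0.33 and 0.26 (mean 0.30, SD 0.05), or 1.23-fold with an interval of 0.915 to 1.65. The brighter probe had 37.7 to 126 times the local background, so its ratios depend little on background correction, and with processed signals its mean was 0.40. The probes lie on the minus strand of chromosome 11 at 52066114 to 52066173 and at 52066738 to 52066797 (mm9).

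Lef1, the relative of Tcf7 with the same HMG-box DNA-binding domain, had similar ratios at its 1 probe. The log2 signal was 8.68 in Rbpj-cKO and 8.37 in control on the male array, and 8.20 and 7.78 on the female array. Rbpj-cKO was higher within each array, while the male control lay above the female Rbpj-cKO signal. The ratios were 0.31 and 0.41 (mean 0.36, SD 0.07), or 1.28-fold with an interval of 0.957 to 1.72. The signal was 2.50 to 6.97 times the local background, and with processed signals the mean was 0.60. The probe spans 18162 bases of chromosome 3 (130907851 to 130926012, mm9) and so reads across an exon junction.

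Sp5, a zinc finger protein of the Sp1 family that beta-catenin induces directly, had the highest mean ratio of the targets, and that mean rests on the male array. Its log2 signal was 9.28 in Rbpj-cKO and 8.20 in control on the male array, and 9.01 and 8.97 on the female array. The male control was the lowest of the 4, and the female pair was nearly equal. The ratios were 1.07 and 0.04 (mean 0.56, SD 0.73), or 1.47-fold with an interval of 1.04 to 2.09. That interval rests on the variance pooled over all probes and understates the spread of these 2 ratios. Without the male array the value is 0.04. With processed signals the ratios were 1.51 and 0.26. Its probe maps to bases 70315688 to 70315747 of chromosome 2 (mm9).

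Nkd1, the naked cuticle homologue that binds Dishevelled, had the smallest mean ratio of the targets at its brighter probe. The log2 signal there was 14.09 in Rbpj-cKO and 13.91 in control on the male array, and 13.81 and 13.60 on the female array. The ratios of 0.18 and 0.21 (mean 0.19, SD 0.02) were the closest pair among the members, 1.14-fold with an interval of 0.852 to 1.53. This probe was also the one farthest above background, at 157 to 359 times. The Nkd1 dimmer probe had -0.07 and 0.52 (mean 0.23, SD 0.42), so the sign of the male array differed between the probes. They lie on chromosome 8 at 91116160 to 91116219 and at 91118468 to 91118527 (mm9).

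**Figure D3:**
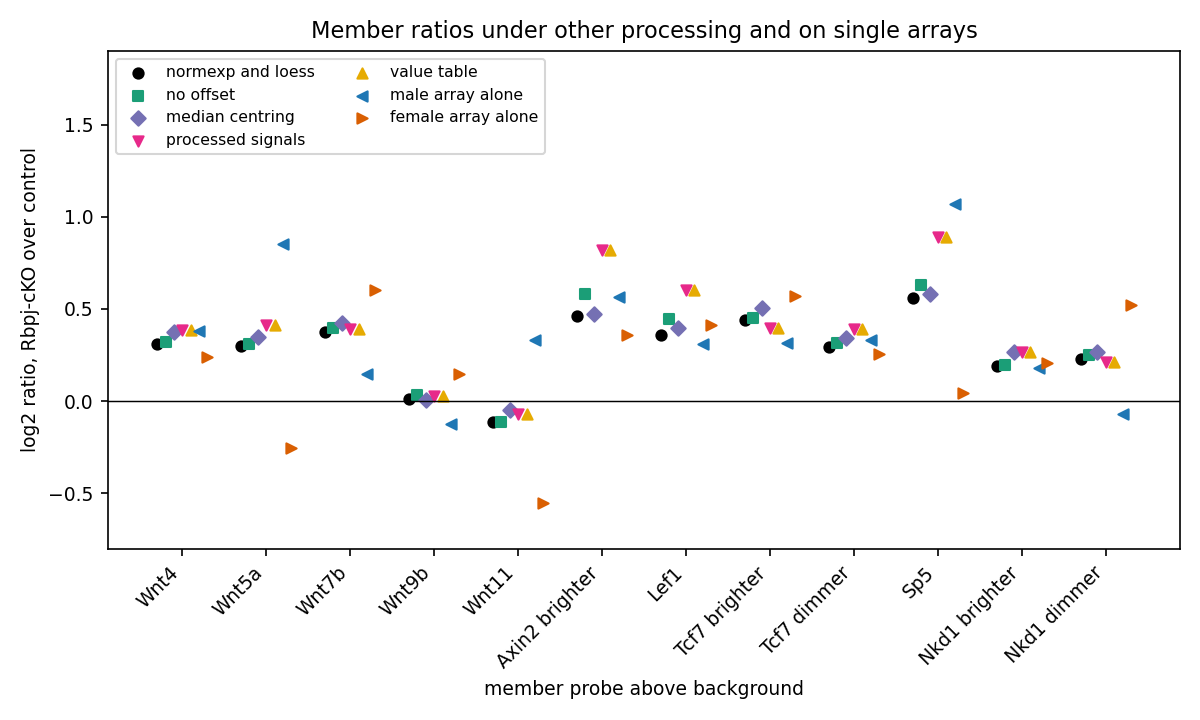
Log2 ratio of Rbpj-cKO over control (y axis) of the 12 member probes above background (x axis) under the processing used here, under 4 other settings, and on each array alone. All target means stay above 0 under these settings; Wnt5a, Wnt9b, Wnt11 and the Nkd1 dimmer probe change sign between the single arrays, and Axin2, Lef1 and Sp5 are larger with processed signals.

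The promoters of the members were searched for the words that LEF and TCF proteins bind (CTTTG followed by either A or T and again by either) and for the core word of RBPJ sites (TGGGAA), on both strands, in the 250 bases before each start. RefSeq promoters (GRCm38.p6) were at hand for 8 members, with 13 windows since some have several starts. Wnt5a and Wnt7b had no entry. A LEF or TCF word was found in 3 of 13 windows, 1 each of Sp5, Wnt11 and Lef1, where 14.8% of all 32851 windows hold one. The RBPJ word was found in 1 window, that of Sp5, where 21.6% of all windows hold it. Sp5 is shown because it holds both kinds of word. Its window is chr2:70474673-70474922 on the plus strand, with the matches in capitals.
Sp5 promoter: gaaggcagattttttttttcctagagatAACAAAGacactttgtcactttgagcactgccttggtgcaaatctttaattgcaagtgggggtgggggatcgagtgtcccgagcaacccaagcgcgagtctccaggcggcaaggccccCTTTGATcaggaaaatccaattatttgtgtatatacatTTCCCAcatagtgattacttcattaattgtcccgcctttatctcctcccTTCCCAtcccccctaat
The LEF and TCF words begin 222 and 104 bases before the start, the first on the opposite strand, and the RBPJ words 66 and 17 bases before it, both on the opposite strand. None overlap. A match in letters is not a bound site, and no binding was measured here.

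Other genes of the pathway, from a list chosen with earlier results of these data known, did not pass the limma test either. Of 68 genes, 60 were measured, 0 passed, and 5 had an unadjusted limma p under 0.05, all of them higher. Of all features, 1.47% were higher with such a p, and 3.37% had one in either direction. The median of the 60 genes was 0.02, and 19 were higher and 11 lower on both arrays, with 30 in opposite directions. The shares of all features were 21.7%, 19.7% and 58.6%, in that order. Among the 14 other ligands, 9 were measured (median 0.04). Wnt6 had 0.94 and 0.23 (mean 0.59) and Wnt10a 0.68 and 0.40 (mean 0.54), while Wnt10b (mean -0.27) and Wnt16 (mean -0.26) were the lowest. Wnt3, Wnt3a, Wnt7a, Wnt8a and Wnt8b were not well above background.

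Receptors had a median of 0.05 over 14 measured genes. The Frizzled receptor Fzd10 had 0.76 and 0.40 (mean 0.58) and Fzd1 had 0.42 and 0.31 (mean 0.37), while Fzd9 and Fzd8 had means of -0.30 and -0.25. The 4 genes of ligand release had a median of -0.02. The deacylase Notum, which inactivates WNT ligands, had 0.34, the ligand carrier Wls -0.02, the acyltransferase Porcn -0.03 (0.34 and -0.40) and the glypican Gpc4 -0.02.

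The 12 cytoplasmic genes had a median below 0.01, from -0.20 for the kinase Csnk1a1 to 0.20 for the kinase Gsk3a, with Axin1 at -0.17 and Btrc at 0.09. The 10 nuclear genes had 0.04, with the corepressors Tle1 at 0.36, Tle3 at -0.16 and Tle4 at -0.20, and the repressor Tcf7l1, a further relative of Lef1, at 0.18.

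The 14 other targets and feedback genes, of which 12 were measured, had a median of 0.11, below that of the 5 member targets. Of these 12, 6 were higher on both arrays and 1 was lower on both, beside 21.7% and 19.7% of all features. The secreted antagonist Dkk1 had 0.61 and 0.60 (mean 0.60, SD 0.0080, limma adjusted p = 0.892), the 1 gene of the list at least 1.5-fold higher on both arrays. The R-spondin receptor Lgr5 had 1.46 and 0.17 (mean 0.82). The lowest were the cyclin Ccnd1 at -0.29 and the WNT protease Trabd2b at -0.15 (0.22 and -0.52). The higher values of the member targets were thus not shared by every target gene on the array.

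**Figure D4:**
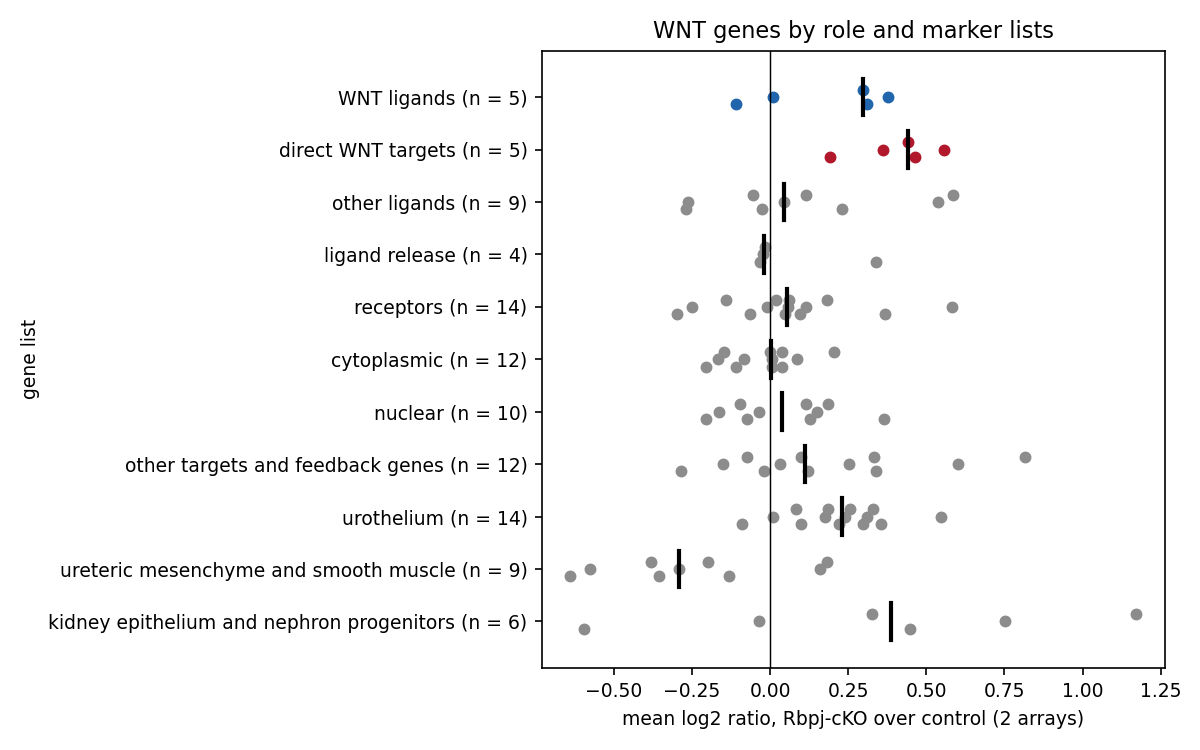
Mean log2 ratio of Rbpj-cKO over control (x axis) of each measured gene, in rows by list, with the list's median as a bar; WNT ligands are blue, direct WNT targets red and other lists grey. The target median of 0.44 lies right of the ligand median of 0.30 and of the 6 lists of other WNT genes, whose medians run from -0.02 to 0.11, and the urothelium and kidney lists also have medians above 0.

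In RNA of whole ureters, fewer cells of a type and less RNA per cell cannot be told apart, and marker lists moved beside the members. Urothelial markers, from the layer that makes Wnt7b, had a median of 0.23, with 11 of 14 higher on both arrays (21.7% of all features). Their summed intensity was 1181092 in Rbpj-cKO and 974537 in control on the male array, and 1196432 and 1019063 on the female array, with Upk1b at 0.18, Upk2 at 0.33 and Upk3a at 0.22. Markers of ureteric mesenchyme and smooth muscle, the layer known to respond to urothelial WNT signals, had -0.29. Of these, 7 of 9 were lower on both arrays (19.7% of all features). Their sum was 648795 in Rbpj-cKO and 807802 in control on the male array, and 646920 and 732223 on the female array. Acta2 was at -0.20 and Myh11 at -0.35. Tbx18 had opposite signs, at -0.11 (male) and 0.47 (female), with a mean of 0.18. Its locus carries the cre in Rbpj-cKO embryos, so it is not a neutral marker of this layer.

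Kidney markers, from tissue in which Wnt4, Wnt9b and Wnt11 are known, were in part absent. Of 11, 6 were measured (median 0.39), and Lhx1, Umod, Slc34a1, Nphs1 and Calb1 were not well above background. The nephron progenitor markers Six2 and Cited1 went opposite ways, Six2 with 1.48 and 0.86 (mean 1.17) and Cited1 with -0.70 and -0.49 (mean -0.59). Cdh16 had a mean of 0.75, Pax8 of 0.45 and Pax2 of -0.04. Cited1, Cdh16 and Pax8 are named after their values were seen. The sum over the 6 was 11077 in Rbpj-cKO and 13494 in control on the male array, and 13755 and 14588 on the female array. Mesothelial markers (5 of 5 measured) had medians of 0.50 (male) and -0.21 (female), with Wt1 at 0.50 and -0.21. Their sum was 50196 in Rbpj-cKO and 38026 in control (male), and 43591 and 41630 (female). Markers of gonad, adrenal and genital ducts had -0.10 (7 of 8 measured, Amh not well above background), with sums of 14292 in Rbpj-cKO and 16957 in control (male), and 14054 and 21636 (female). Endothelial markers (5 genes) had a median of -0.08. Nerve and glia markers (6 genes) had medians of 0.31 (male) and -0.17 (female), and log2 ratios of their summed intensity of 0.28 and -0.80. Immune markers (5 genes) had a median of -0.04, with ratios of the sum of 0.25 and -0.43. Skeletal muscle markers (5 genes) had a median of -0.42, and Ckm, muscle creatine kinase, fell on both arrays (-1.42 and -1.43, limma adjusted p = 0.0203). Ckm, named after its values were seen, was the 1 gene of all lists that passed the test. The part of these lists in the values of the members was not tested.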

How the data were processed

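Per the labels, RNA of E18.5 ureters was hybridised on 2 two-colour arrays with the dyes swapped, and the number of embryos behind an RNA is unknown here. The scanner files deposited by the authors came from Agilent Feature Extraction 10.7.3.1, per the submitters' processing notes. They give each spot's intensity and the log10 ratio of red over green processed signals, per the file headers. Processed signals are intensity values that were background-subtracted, detrended and dye-normalized, per the file headers. A value table of the series was also deposited, with a score of unstated origin. It never lies between -1 and 1, and taken as a fold with a sign (Rbpj-cKO against control) it correlated at 1.0 with the turned scanner ratio on each array, over probes well above background in all channels. Its column medians were 1.0.

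The background was corrected by normexp in limma 3.58.1 (R 4.3.3, offset 50), from mean signals and median backgrounds, followed by loess within arrays, in which control spots had weight 0. Outlier spots (200 and 274) were left out. The sign of the swapped array was turned, and channel levels were set on 1 scale with Aquantile. Probes were kept when well above background on both arrays in either group. Of 39429 probes, 26412 took their names from RefSeq accessions (GRCm38.p6) and 13017 kept those of the array design. The members bore the same symbol by both routes.

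Features (20989, the brightest probe of each gene) and, separately, 26224 single probes were tested with lmFit and eBayes, two-sided, and p-values were adjusted by Benjamini-Hochberg across the whole table and a threshold of 0.05. Residual degrees of freedom were 1, with 10.3 prior ones in the feature fit. The 95% intervals come from the single-probe fit. The feature fit, but not the single-probe fit, was tested on simulated data. The simulated arrays had independent errors and the same change on each, with no dye, sex or array effect as the real arrays may hold. The feature fit missed most changes of the smallest simulated fold, which was above the mean fold of every member. It also made more false calls than its threshold allows. Slide and scan are shared by both arrays and could not serve as a block. Array number limits the precision. The p-values rest on the spread between these arrays alone, with a gene's own spread moderated by that of all features or probes.

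Alternatives were processed signals, median centring, no offset, the value table, no filter on dim probes, a filter on all channels, the mean of a gene's probes, an intensity trend and single arrays. The members and lists were chosen with earlier results of these data known. All members are named with every probe, and of each list of other WNT genes up to 4 are named (called genes, then the extremes of the mean ratio). Of the marker lists, Upk1b, Upk2, Upk3a, Acta2, Myh11, Tbx18, Six2, Pax2 and Wt1 are named, with Rbpj as a check of the labels. The value of 1 further marker gene is not reported here.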

Additional observations from a re-analysis of the deposited data

Results flagged for a closer look

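For 4 member probes the male and the female array gave ratios of opposite sign. The difference, as the male minus the female log2 ratio, was 1.11 for Wnt5a (0.85 and -0.25), 0.88 for Wnt11 (0.33 and -0.55), -0.59 for the Nkd1 dimmer probe (-0.07 and 0.52) and -0.27 for Wnt9b (-0.12 and 0.14). With 1 array per sex these differences were not tested. None of the 4 probes was at least 1.5-fold in both directions. Opposite signs were found for 58.6% of all features, so they do not set these genes apart.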

How the results depend on the processing

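For the 12 member probes above background, every mean kept its sign with median centring, no offset and processed signals. The value table repeated the processed signals. The intensity trend and the filter settings leave the ratios as they are, so they could not change a sign. No member probe passed under any of the 7 other settings of the probe fit (lowest limma adjusted p 0.745, for Axin2 with an intensity trend). All 5 targets and 2 of 5 ligands were higher on both arrays with median centring, no offset and processed signals. The targets stayed so when probes of a gene were averaged. The target median was 0.44, and it was 0.37 when probes of a gene were averaged and 0.60 with processed signals or the series value table. Left with a single array, it was 0.36 to 0.32 for the targets and 0.14 to 0.33 for the ligands. The count of features past the test, 26, was 41 with an intensity trend, 10 when probes of a gene were averaged, and 0 with median centring, no filter on dim probes, processed signals or the value table (lowest adjusted p 0.158, 0.0531, 0.0517 and 0.0748). The count of single probes, 42, was 74 with an intensity trend, 84 with no offset, and 0 with the same 4 settings (lowest adjusted p 0.435, 0.0514, 0.0588 and 0.0863). Median centring moved the median of all features to 0.17 (male) and -0.09 (female). With 1 array there is no test, so no count was made. The fits were already paired, because each array holds both groups and its ratio is the pair. Signal over background was lowest for Wnt9b, Axin2 and Lef1.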
